A study of Mus musculus with 19 samples.

Results

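Distal SOX9 peaks shared with SOX3 are stretches of the mouse genome, away from gene starts, where the chromatin of glial progenitor cells was pulled down by antibodies against both transcription factors. They were taken as the peaks of the SOX9 list that lay more than 1000 bp from the transcription start site of their assigned gene and had at least 1 bp in common with a peak of the SOX3 list. The rule found 312 such peaks, called shared peaks here, among 2943 SOX9 peaks in all, which is 10.6% of the list and 11.5% of the 2704 SOX9 peaks beyond 1000 bp. They touched 294 of the 1367 SOX3 peaks, or 21.5% of that list. They were chosen by their distance and by their overlap in these lists, so their position and their overlap are a description with no test, while the NFIA peaks and the expression of the genes played no part in the choice.

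2 kinds of mouse culture were compared by RNA-seq, glia in 3 libraries and glial progenitor cells (GPC) in 4 libraries, both derived from embryonic stem cells of no stated strain or genotype. All labels carry one culture text: differentiation in N2B27 medium with 0.1 μM retinoic acid, magnetic selection at day 8 for A2B5, a surface antigen of early glial precursors, and growth with EGF and FGF2 at 10 ng/ml. How the glia were made from there is not stated in those labels. ChIP-seq, which sequences the DNA bound by a protein, was done in GPC and gave 1 list each over 3 SOX9, 2 SOX3 and 2 NFIA samples, so no peak has a replicate error and binding in glia was not analysed here.

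SOX proteins bind DNA through an HMG box that bends the helix at a short AT-rich site. SOX3 belongs to the SOXB1 group, which keeps neural progenitors undifferentiated, and SOX9 to the SOXE group, which is needed for the switch from neuron to glia production in the embryonic spinal cord. NFIA, a nuclear factor I protein, is induced downstream of SOX9 there and acts with it on glial genes. SOX3 and SOX9 recognise similar core sites, and a site can be held by different SOX proteins as cells mature. Binding away from gene starts is typical of enhancers, and the nearest gene is a label of position, not proof of a target.

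The libraries held 6897294 to 17369367 reads in genes in glia and 12836998 to 22439837 in GPC. The summed levels of myelin, astrocyte and progenitor markers followed the labels, while single markers did not all do so. The astrocyte and progenitor sums did so mostly through Gfap and Fabp7. The summed level of 5 myelin genes of oligodendrocytes was 1339 to 1864 RPKM (reads scaled by gene length and library size) in glia and 9.42 to 25 RPKM in GPC, with all 5 rising. That of 5 astrocyte markers was 3278 to 3807 RPKM in glia and 336 to 353 RPKM in GPC, with Gfap, Aqp4 and S100b rising and Aldh1l1 and Slc1a3 falling (log2 change -1.19 and -0.75). Most of the glia sum was Gfap, which averaged 3258 RPKM in glia and 8.37 RPKM in GPC. Most of the GPC sum was Slc1a3, which averaged 182 RPKM in glia and 300 RPKM in GPC. The 6 progenitor markers summed to 2107 to 2243 RPKM in glia and 6057 to 6651 RPKM in GPC, with Olig2, Nes, Fabp7 and Cspg4 falling and Pdgfra and Sox2 rising (1.34 and 0.24). Most of that sum was Fabp7, which averaged 1659 RPKM in glia and 5529 RPKM in GPC. All 4 microglial markers were below 1 RPKM in every library. The 4 neuronal markers summed to 159 to 174 RPKM in glia and 141 to 159 RPKM in GPC, and most of that sum was Map2, which fell (-0.27). Of the other neuronal markers, Elavl3 averaged 32.0 RPKM in glia and 2.81 RPKM in GPC, Syt1 4.79 RPKM in glia and 0.479 RPKM in GPC, and Rbfox3 4.51 RPKM in glia and 1.20 RPKM in GPC, and all rose. These are bulk libraries, so fewer cells of a type and less RNA per cell cannot be told apart. GPC replicate 3, the deepest library, stood apart: it held the highest or the lowest GPC value in 182 of the 216 tested genes of shared peaks (84.3%) and in 74.0% of all tested genes, and values without it are given beside genes whose overlap or call turned on it. Whether replicates are separate cultures is not stated, so each p-value reflects the spread of these libraries, which can be technical.

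The factors themselves differed between the cultures. Sox3 had 41.7, 29.3 and 46.6 RPKM in glia, against 72.3, 68.8, 122 and 66.6 RPKM in GPC. Sox9 had 76.4, 75.2 and 75.8 RPKM in glia, against 53.5, 53.9, 62.7 and 52.5 RPKM in GPC. Nfia had 22.0, 27.1 and 20.8 RPKM in glia, against 10.4, 11.1, 15.8 and 11.2 RPKM in GPC. Sox3 was thus the one of the 3 that was lower in glia, with no overlap between the groups for any of them.

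The SOX9 and SOX3 peak centres of shared peaks lay close together, which the overlap rule fixes in part. SOX9 peaks all had the same width. The centres of the SOX9 peak and the nearest SOX3 peak were 50.25 bp apart at the median, at most 100 bp apart in 242 of 312 shared peaks (77.6%) and at most 200 bp apart in 290. Of the 22 with centres farther apart, up to 396 bp, 15 sat in runs of overlapping SOX9 peaks that share a SOX3 peak. The shared stretch had a median of 238 bp and ran from 10 bp to the whole SOX9 peak. In 97 shared peaks SOX3 covered 50% or more of the SOX9 peak.

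Among the widest overlaps was that of Sox21, a SOXB2 factor that promotes the exit of neural progenitors from the progenitor state. Its SOX9 peak at chr14:118629474-118630074 (mm9, 5537 bp downstream of the start) lay whole within a SOX3 peak of 804 bp, the widest SOX3 peak that a shared peak touched. The peaks of Rgmb and Tmpo shared 586 and 580 bp. At the other end, a SOX9 peak of Tle3 shared 10 bp, one of Zfp706 38 bp and one of March3 57 bp. Just outside the rule, SOX9 peaks of Rad51b, Slc44a3 and Olig1 missed a SOX3 peak by 8, 159 and 201 bp. A touched SOX3 peak had the same assigned gene as the SOX9 peak in 312 of 312 cases. Since the rule asks for overlap, such agreement is largely built in. SOX3 peaks that touched a shared peak were wider, with a median of 224 bp, than the 1073 others, with a median of 158 bp. The part of peak width in the overlap was not tested.

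**Figure D1:**
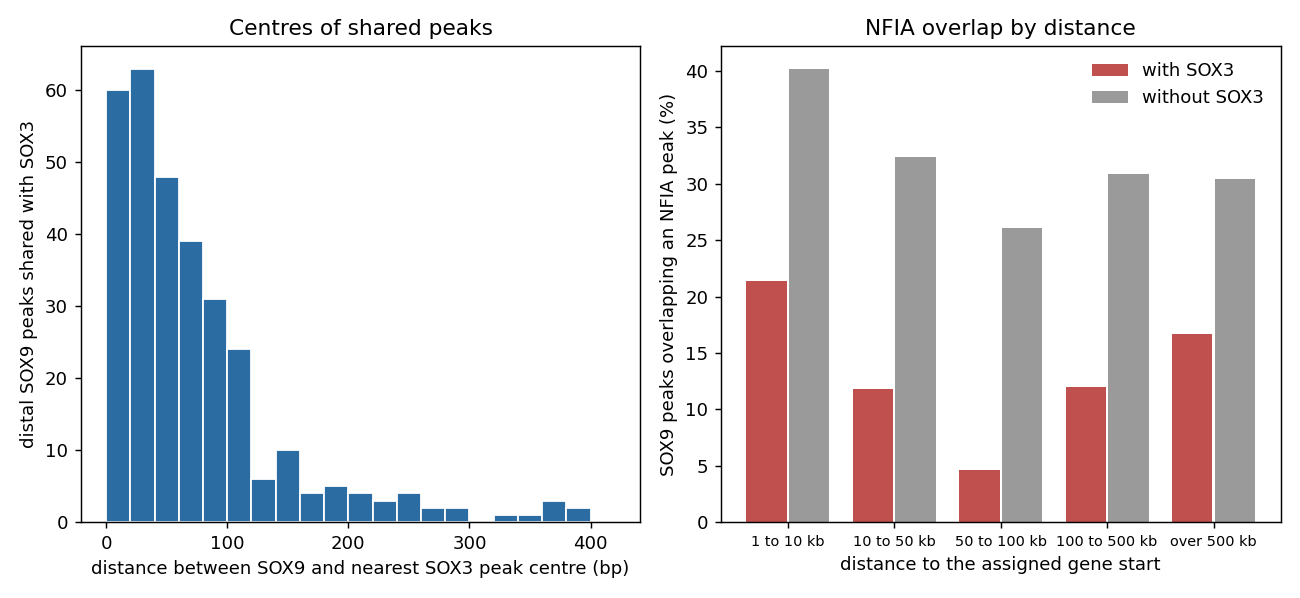
Left, the number of shared peaks by the distance between the centres of the SOX9 peak and the nearest SOX3 peak, in bins of bp. Right, the percent of distal SOX9 peaks that overlap an NFIA peak, by distance from the assigned gene start, for peaks with SOX3 (red) and without SOX3 (grey). Centres lay at most 100 bp apart in 77.6% of shared peaks, and the red bar is the lower one in each distance class.

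Shared peaks reached far from genes. The distance to the assigned start had a median of 60834 bp, with quartiles of 20794 and 140937 bp, against a median of 54252 bp and quartiles of 18618 and 166068 bp for the 2392 distal SOX9 peaks without SOX3. Of the shared peaks 42 lay 1 to 10 kb away, 93 lay 10 to 50 kb, 65 lay 50 to 100 kb, 100 lay 100 to 500 kb and 12 beyond 500 kb. The share beyond 100 kb was 35.9% with SOX3 and 34.9% without it. Shared peaks lay downstream of the start in 194 cases and upstream in 118 (37.8% upstream), against 44.0% upstream among distal SOX9 peaks without SOX3. No test was run on these differences, since peaks of one list are not replicates.

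Close to gene starts the overlap was rare, with 6 of 239 SOX9 peaks within 1000 bp touching SOX3. The members nearest to the limit belonged to Dhrs2 at 1312 bp, Vps37b at 1363 bp and Spata2 at 1592 bp. Just inside it, and so left out, were peaks of Ctnna3, Ppp6r3 and Acot1, at -575, -556 and -179 bp, where the minus sign means upstream. The farthest member lay 877249 bp downstream of the start of Il1rapl1, a synaptic receptor-like gene of the X chromosome, at chrX:84483435-84484035 (mm9). It was the one shared peak on that chromosome, which held 68 SOX9, 3 SOX3 and 1055 NFIA peaks. On the 19 autosomes shared peaks made up 8.94% to 14% of SOX9 peaks. After it came a pair of overlapping SOX9 peaks 822693 and 822921 bp upstream of Epha5, which encodes an ephrin receptor.

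A few loci were hit repeatedly. The 312 shared peaks were assigned to 268 genes, of which 233 had 1, 30 had 2, 3 had 3, 1 had 4 and 1 had 6. Part of this repetition came from the calls: 58 shared peaks (18.6%) overlapped another SOX9 peak, against 11.2% of distal SOX9 peaks without SOX3, and 28 SOX3 peaks were touched by more than 1 shared peak. Of the 35 genes with several shared peaks, 23 had them in a single run of overlapping SOX9 peaks and 12 in separate runs. Joined within 25 kb, the shared peaks came to 280 loci.

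The most repeated gene was Hdgfl1, a testis-expressed member of the hepatoma-derived growth factor family. It had 6 shared peaks in 4 runs on chromosome 13, at 615057, 614814, 194219, 193902, 112948 and 110418 bp downstream of its start. Nrsn1, which encodes a neuronal vesicle protein, had 3 overlapping ones in 1 run, at 480660, 480987 and 481218 bp upstream of its start. Both sets fall into the same stretch of 1.5 Mb between the starts of the 2 genes, which are neighbouring coding genes in the RefSeq annotation of GRCm38.p6. That stretch held 10 SOX9 peaks, of which 9 were shared peaks, and all 5 of its SOX3 peaks were touched. It also held 10 NFIA peaks, none of which overlapped a shared peak. The nearest NFIA centre lay 505 bp from that of the shared peak at chr13:26751317-26751917 (mm9).

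The genes on either side of this stretch were low or not expressed. Nrsn1 had 1.45, 1.90 and 1.22 RPKM in glia, against 0.363, 0.519, 0.551 and 0.451 RPKM in GPC, so that all glia values were above all GPC values (log2 change 1.56 ± 0.23 SE). Hdgfl1 did not exceed 0.0288 RPKM in glia and 0.0778 RPKM in GPC and was not tested. So the gene with the most shared peaks assigned to it had next to no reads in either culture.

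Pabpc6, a poly(A)-binding protein gene of the testis, had 4 shared peaks in 3 runs on chromosome 17, at 56218, 56347, 106300 and 179507 bp upstream. It did not exceed 0.0903 RPKM in glia or 0.125 RPKM in GPC. The next coding gene on that side in RefSeq is Qk, an RNA-binding protein of glia that acts in myelination, named here after its values were seen. Qk had 227, 243 and 210.3 RPKM in glia, against 178, 215, 229 and 204 RPKM in GPC. The groups overlapped, and its log2 change of 0.15 ± 0.10 did not pass the test, but was 0.22 without GPC replicate 3 (adjusted p = 0.0172, edgeR's quasi-likelihood test).

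Cdh11 and Rgma, with 3 shared peaks each, were expressed at both stages. Cdh11, a cadherin of mesenchymal and neural cells, had its shared peaks 58236, 42861 and 42709 bp downstream of the start, the first at chr8:105250475-105251075 (mm9). It had 59.2, 62.8 and 54.3 RPKM in glia, against 12.7, 14.2, 20.0 and 13.1 RPKM in GPC, a log2 change of 1.93 ± 0.15. Rgma, a membrane-anchored guidance molecule that binds neogenin, had its shared peaks 190125, 178364 and 72876 bp upstream, in 3 runs. It had 225, 187 and 239 RPKM in glia, against 132, 118, 194 and 126 RPKM in GPC. One GPC value, that of replicate 3, lay above the lowest glia value, and the rise (log2 change 0.58 ± 0.18, adjusted p = 0.0183 by edgeR's quasi-likelihood test) ended without glia replicate 1 or 3 (adjusted p = 0.0551 and 0.0774). It was 0.77 without GPC replicate 3.

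NFIA was seen at fewer shared peaks than at other distal SOX9 peaks. An NFIA peak overlapped 37 of 312 shared peaks (11.9%), against 763 of 2392 distal SOX9 peaks without SOX3 (31.9%). Counted once per run of overlapping SOX9 peaks, the shares were 34 of 284 (12%) with SOX3 and 711 of 2250 (31.6%) without. The gap held in each distance class: with SOX3 and without it, the shares were 21.4% and 40.2% at 1 to 10 kb, 11.8% and 32.4% at 10 to 50 kb, 4.62% and 26.1% at 50 to 100 kb, 12% and 30.9% at 100 to 500 kb, and 16.7% and 30.4% beyond. An NFIA centre lay within 10 kb of 26% of shared peaks and 41.8% of distal SOX9 peaks without SOX3, overlapping ones included. Among peaks that no NFIA peak overlapped, these shares were 44 of 275 (16%) and 238 of 1629 (14.6%). The gap within 10 kb was thus seen with direct overlaps included and not among the remaining peaks. The SOX3 list as a whole was low in NFIA, with 7.39% of all its peaks and 6.25% of its distal peaks without SOX9 overlapping an NFIA peak. Each factor has 1 list, so the difference has no replicate check and was not tested.

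Where NFIA did meet a shared peak, the NFIA and SOX3 peaks themselves overlapped in 35 of 37 cases. Both had to touch the same SOX9 peak to be counted, so such overlap is in part built in, and it was not tested. NFIA centres were 68.0 bp from the SOX9 centre at the median, at most 100 bp in 20 of 37. The deposited NFIA score, whose meaning is not stated, had a median of 23.0 at shared peaks and 31.0 at distal SOX9 peaks without SOX3. One shared peak stood out from all others. The highest score of the 14164 NFIA peaks, 1677, with 1447 next in the list, lay at chr9:102029972-102030572 (mm9), 189460 bp downstream of the start of 9630041A04Rik, a gene that could not be matched to the expression table. SOX9, SOX3 and NFIA peaks were nearly concentric there, with the SOX3 centre 8 bp away and 153 bp shared with SOX3. After it, the highest NFIA scores at shared peaks were 246 at Mgat4c, 141 at Ccdc162, 119 at March3, 104 at both Ntrk3 and Aurkb, and 93 at Abt1, named after their values were seen.

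Base sequences can be shown for the gene starts and not for the distal peaks, since a genome of the peak files' build was not used here. Only Paip2b and Arntl, of the genes with a shared peak, also had a SOX9 peak within 1000 bp of the start, centred 99 and 295 bp upstream, and neither of those promoter peaks touched SOX3 or NFIA. Paip2b encodes a translational regulator that binds poly(A)-binding protein, and Arntl the clock factor BMAL1. The Paip2b promoter is printed because, if the deposited start is that of RefSeq, the printed bases lie within its SOX9 peak. Capitals mark 2 motifs on both strands, the SOX core, which reads ACAAT on one strand and ATTGT on the other, and the CCAAT box, a site known for binding NF-Y, which reads ATTGG on the other strand. The sequence is from RefSeq (GRCm38.p6), on the strand of the gene, from 250 bases before to 50 after the start.
Paip2b: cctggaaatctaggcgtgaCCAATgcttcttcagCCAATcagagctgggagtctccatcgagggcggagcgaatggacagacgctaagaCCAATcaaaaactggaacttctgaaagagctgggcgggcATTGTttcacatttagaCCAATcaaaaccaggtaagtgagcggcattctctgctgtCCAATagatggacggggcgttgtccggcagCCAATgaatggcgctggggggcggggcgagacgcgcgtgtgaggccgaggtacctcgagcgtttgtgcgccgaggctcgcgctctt
The Paip2b promoter (chr6:83831692-83831991, minus strand) held 1 SOX core and 6 CCAAT boxes. Over 32851 RefSeq promoters of that length, 31.0% held a SOX core and 37.4% a CCAAT box. A match is a description of these letters. Paip2b had 38.3, 41.4 and 37.9 RPKM in glia, against 37.8, 43.1, 45 and 38.5 RPKM in GPC, with no change called. Arntl had 11.4, 12.1 and 12.1 RPKM in glia, against 17.6, 18.1, 22.2 and 19.6 RPKM in GPC, and fell (log2 change -0.74 ± 0.10).

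Genes of shared peaks had a higher median level than those of other peaks. Of the 268 genes, 255 were found in the expression table, 249 by symbol and 6 by a synonym. Their median level was 12.8 RPKM in glia and 13.3 RPKM in GPC. For genes with distal SOX9 peaks without SOX3 and no shared peak it was 5.92 RPKM in glia and 4.80 RPKM in GPC. Genes with a separate SOX3 peak were not removed from that set. Over all genes the median was 2.34 RPKM in glia and 1.52 RPKM in GPC. In GPC 78.0% of the genes of shared peaks averaged at least 1 RPKM, against 64.1% and 52.4% for these sets in turn. Genes with distal SOX3 peaks and no SOX9 peak had a median of 6.77 RPKM in glia and 5.96 RPKM in GPC. No test was run, since peaks were assigned to genes by the authors in a manner not stated.

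The shared peaks did not mark one direction of change between the cultures. A gene was called changed at an adjusted p below 0.05 by edgeR's quasi-likelihood test of glia over GPC, two-sided with Benjamini-Hochberg adjustment over all genes tested. Of the 255 genes 39 had too few reads and 216 were tested; 72 rose, 86 fell and 58 were not called. The 73.1% called is near the background, since 70.4% of all 13588 tested genes were called, 35.2% rising and 35.2% falling. Without GPC replicate 3 there were 85 rising and 91 falling genes, 81.5% called against 75.8% of all 13550 genes tested in that fit. The median log2 change was -0.01 for genes of shared peaks and 0.00 over all genes. Rises of at least 2-fold were found for 37 genes (17.1%; background 16.5%) and falls of at least 2-fold for 33 (15.3%; background 9.24%). The levels in glia and GPC did not overlap for 152 genes (70.4%; background 69.1%).

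Direction was also counted by peak class, beside a background of 35.2% rising and 35.2% falling over all tested genes. Genes with distal SOX9 peaks without SOX3 and no shared peak rose in 483 (40.1%) and fell in 406 (33.7%) of 1203 tested. Their median was 0.06, and genes with a separate SOX3 peak were not removed from this class. Genes with distal SOX3 and no SOX9 peak rose in 153 (39.9%) and fell in 131 (34.2%) of 383. Among genes of shared peaks, the 68 tested genes that had a further SOX9 peak rose in 17 cases (25%) and fell in 34 (50%; median -0.27). The 148 without a further one rose in 55 (37.2%) and fell in 52 (35.1%; median 0.09). The 42 with a further SOX3 peak free of SOX9 rose in 11 (26.2%) and fell in 23 (54.8%; median -0.43). Genes whose shared peak had NFIA rose in 6 (24%) and fell in 9 (36%) of 25. Those with no NFIA there rose in 66 (34.6%) and fell in 77 (40.3%) of 191. These are counts, and the differences between them were not tested.

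**Figure D2:**
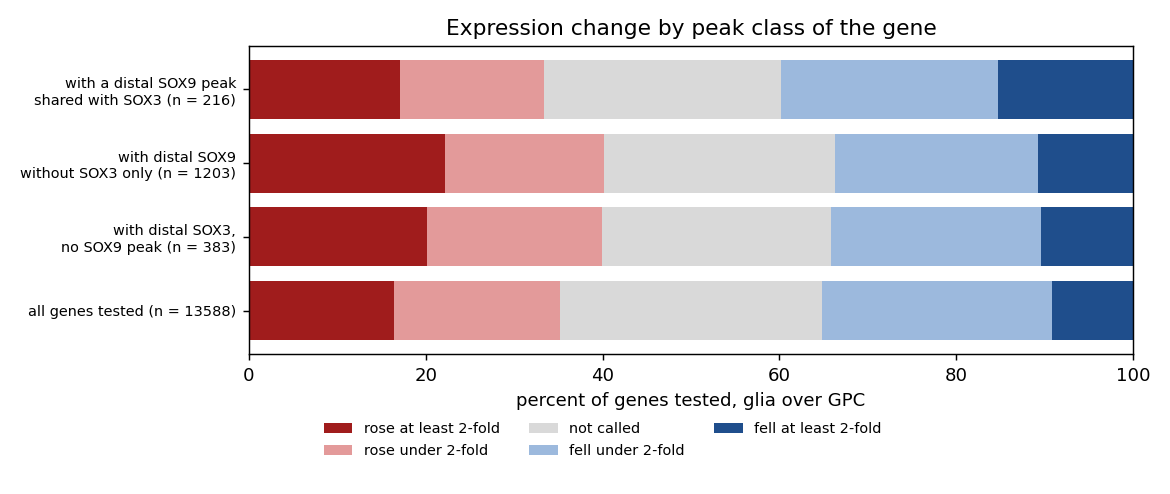
Percent of tested genes that rose, fell or were not called in glia over GPC, for genes with a shared peak, 2 other peak classes and all genes tested, with the number of genes in brackets. Genes of the class labelled as distal SOX9 without SOX3 only had no shared peak, but those with a separate SOX3 peak were not removed. Genes of shared peaks rose in 33.3% and fell in 39.8% of cases, against 35.2% in each direction over all genes.

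The largest falls were led by Fbln2 and Etv5. Fbln2, which encodes the matrix protein fibulin 2, had 3.69, 3.64 and 3.92 RPKM in glia, against 174, 168, 166 and 174 RPKM in GPC. Every glia library was far below every GPC library, a log2 change of -5.52 ± 0.08 (adjusted p = 7.01e-11, edgeR's quasi-likelihood test). Its shared peak lay 89700 bp downstream, at chr6:91251849-91252449 (mm9), close to that of Wnt7a at chr6:91295883-91296483.

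Etv5, an ETS factor induced by FGF signalling, had 14.6, 13.5 and 14.1 RPKM in glia, against 190.1, 201, 139.5 and 181 RPKM in GPC (log2 change -3.68 ± 0.13). The groups were far apart, and the shared peak 10684 bp downstream had its SOX9 and SOX3 centres 2.5 bp apart. Dusp4, a phosphatase that inactivates MAP kinases, had 2.49, 2.24 and 2.05 RPKM in glia, against 10.2, 9.92, 11.5 and 10.5 RPKM in GPC (-2.24 ± 0.12). Spred2, an inhibitor of Ras and ERK signalling, had 10.0, 8.19 and 8.17 RPKM in glia, against 39.3, 38.9, 32.2 and 40.2 RPKM in GPC (-2.12 ± 0.11). Its shared peak lay 400130 bp upstream. Fgfbp3, which encodes a secreted carrier of FGF, had 27.4, 18.9 and 24.9 RPKM in glia, against 9.55, 10.2, 23.7 and 8.87 RPKM in GPC. It was not called with all libraries (log2 change 0.81 ± 0.37), with GPC replicate 3 inside the glia range, and rose by 1.32 without that library (adjusted p = 1.06e-06, edgeR's quasi-likelihood test). Of a list of FGF and MAPK genes, 3 of the 4 with a shared peak thus fell and none rose, and of the 30 tested without one 18 fell and 11 rose.

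Aurkb, the kinase of the chromosomal passenger complex in mitosis, had 12.8, 13.0 and 12.7 RPKM in glia, against 75.9, 74.3, 62.7 and 71.0 RPKM in GPC (log2 change -2.50 ± 0.08). It was the 1 gene with a shared peak on a list of 34 cell cycle genes, all of which fell. Its pair of overlapping shared peaks, 4615 and 4332 bp upstream, also carried an NFIA peak. Egln3, an oxygen-sensing prolyl hydroxylase, had 9.47, 8.20 and 8.80 RPKM in glia, against 38.2, 37.9, 76.4 and 44.7 RPKM in GPC (-2.51 ± 0.28), with GPC replicate 3 highest. Hectd2, a ubiquitin ligase gene, changed by -2.53 ± 0.14 and Cpne2, a calcium-dependent phospholipid-binding copine, by -2.02 ± 0.12, both with no overlap of the groups.

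The largest rises included Id4 and Cldn11. Id4, which blocks basic helix-loop-helix factors and is known to be induced by BMP, had 221, 200.5 and 239 RPKM in glia, against 5.33, 5.78, 11.5 and 5.11 RPKM in GPC. The groups were far apart (log2 change 4.91 ± 0.28, adjusted p = 1.58e-06, edgeR's quasi-likelihood test). Its pair of overlapping shared peaks lay 62736 and 63022 bp downstream, the first at chr13:48419233-48419833 (mm9). Cldn11, the claudin of tight junctions in myelin, had 99.9, 65.6 and 115 RPKM in glia, against 4.81, 5.12, 7.04 and 5.64 RPKM in GPC (4.00 ± 0.22). Its shared peak lay 16699 bp downstream.

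Adamtsl1, which encodes a secreted matrix protein, had 21.2, 24.8 and 18.8 RPKM in glia, against 1.41, 1.74, 1.56 and 1.39 RPKM in GPC (log2 change 3.78 ± 0.11). St8sia2, one of the enzymes that put polysialic acid on NCAM, had 27.2, 33.7 and 23.7 RPKM in glia, against 1.52, 1.58, 3.56 and 1.53 RPKM in GPC (3.68 ± 0.32). All glia values were above all GPC values for both. Other large rises were in rarely read genes. Slc44a3, of the choline transporter-like family, had 2.11, 2.74 and 2.09 RPKM in glia, against 0.0606, 0.0299, 0.0694 and 0.0602 RPKM in GPC (5.21 ± 0.27, from 9 GPC reads in all). Arsj, an arylsulfatase gene, had 44 reads over the glia libraries and 1 over the GPC libraries, a ratio per read of 65.0 with a 95% counting interval of 11.1 to 2626. Amer3, listed in the expression table as Fam123c, changed by 3.15 ± 0.43. Veph1 changed by 3.11 ± 0.59, or by 4.70 without GPC replicate 3, which held 5 of its 6 GPC reads.

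The most abundant genes with a shared peak went both ways. Fabp7, the brain lipid-binding protein of radial glia, had 1688, 1621 and 1667 RPKM in glia, against 5678, 5799, 5259 and 5380.0 RPKM in GPC (log2 change -1.77 ± 0.07). Cst3, the protease inhibitor cystatin C, had 3833, 3195 and 4370.2 RPKM in glia, against 625, 593, 1155 and 602 RPKM in GPC (2.32 ± 0.26). GPC replicate 3 was the highest GPC library for Cst3 and still below all glia libraries. Sparcl1, a synapse-organising matrix protein made by astrocytes, had 1052, 1036 and 1048 RPKM in glia, against 183, 191, 211 and 197 RPKM in GPC (2.39 ± 0.07). Its shared peak lay 3514 bp downstream.

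Olig1, a basic helix-loop-helix factor of the oligodendrocyte lineage, had 530.1, 393 and 564 RPKM in glia, against 1166, 1111, 1049 and 1116 RPKM in GPC (log2 change -1.19 ± 0.12). It had a shared peak 6700 bp upstream at chr16:91263014-91263614 (mm9), beside the SOX9 peak that missed SOX3 by 201 bp. Pebp1, known as an inhibitor of Raf kinase, changed by -1.02 ± 0.08. Scd2, a desaturase of lipid synthesis, had 1859, 1736 and 1739 RPKM in glia, against 1366, 1371, 1792 and 1385 RPKM in GPC. Its groups overlapped through GPC replicate 3 and it was not called (0.23 ± 0.11), but rose by 0.34 without that library (adjusted p = 4.72e-05, edgeR's quasi-likelihood test).

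**Figure D3:**
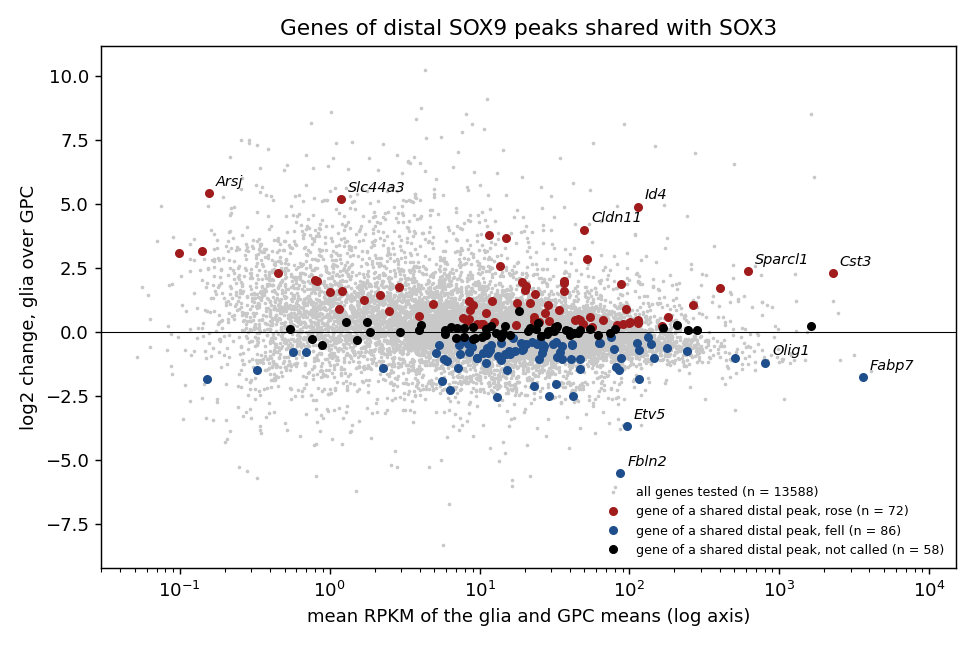
Log2 change of glia over GPC against the mean RPKM of both groups (log axis), for all 13588 tested genes (grey) and for genes with a shared peak that rose (red), fell (blue) or were not called (black). The genes with a shared peak lie on both sides of 0, from -5.52 for Fbln2 to 5.43 for Arsj, whose fitted value rests on 1 GPC read.

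Progenitor transcription factors held 9 genes with a shared peak out of a list of 50, against 255 of all 22958 genes in the expression table. Over all tested genes 35.2% rose and 35.2% fell. Of the 9, 5 rose, 1 fell and 3 were not called (median 0.24), and of the 33 tested on the list without a shared peak 9 rose and 14 fell (median -0.20). Sox2, the SOXB1 factor of neural stem cells, had 186, 163 and 192 RPKM in glia, against 141, 144, 163 and 153 RPKM in GPC. The groups met at 163 RPKM, and the rise (log2 change 0.24 ± 0.08, adjusted p = 0.0273, edgeR's quasi-likelihood test) ended when any of 5 libraries was left out, with adjusted p between 0.0603 and 0.109. It was 0.29 without GPC replicate 3. Sox2 lies inside the noncoding gene Sox2ot, whose reads may count towards it. Its shared peak lay 238333 bp upstream, at chr3:34310295-34310895 (mm9).

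Sox21 was level, with 46.7, 41.8 and 47.8 RPKM in glia, against 42.4, 43.9, 51.4 and 43.1 RPKM in GPC (log2 change -0.02 ± 0.09, with the sign turned under some settings). Pax6, the paired-box factor of radial glia, had 25.9, 27.1 and 27.1 RPKM in glia, against 18, 17.6, 22.4 and 19.4 RPKM in GPC (0.43 ± 0.09). Nkx6-2, a homeobox factor that acts in oligodendrocyte maturation as well, had 60, 38.2 and 76.3 RPKM in glia, against 13.5, 13.9, 15.9 and 15.4 RPKM in GPC (2.00 ± 0.19). For both the groups did not overlap. Rfx4, a regulator of cilia genes in the developing brain, was the one that fell, with 88.2, 93.4 and 87.4 RPKM in glia, against 143, 143, 132 and 145 RPKM in GPC (-0.69 ± 0.06). Insm1, a zinc finger factor of intermediate progenitors, averaged 4.83 ± 0.633 RPKM in glia (SD, n = 3) and 3.05 ± 1.10 RPKM in GPC (SD, n = 4), with overlap, and changed by 0.62 ± 0.24. That call ended when any of the 6 libraries other than GPC replicate 3 was left out (adjusted p between 0.0577 and 0.153, edgeR's quasi-likelihood test), and the change was 0.94 without GPC replicate 3. The proneural factor Neurog2 stayed at 0.392 to 1.01 RPKM in glia and 0.345 to 2.09 RPKM in GPC and was not called (-0.27 ± 0.70). Without GPC replicate 3 its sign turned and it rose by 1.01 (adjusted p = 0.0121, edgeR's quasi-likelihood test).

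Of 34 glial transcription factors 3 had a shared peak: Olig1 and Etv5, given above, and Sox6. Sox6, a SOXD factor that restrains oligodendrocyte maturation, had 34.6, 39.1 and 29.5 RPKM in glia, against 28.5, 30.6, 26.7 and 30.2 RPKM in GPC. The groups overlapped and it was not called (log2 change 0.21 ± 0.09, adjusted p = 0.057, edgeR's quasi-likelihood test). No gene of the nuclear factor I family (4 genes), of the Hedgehog list (14) or of the neuronal list (21) had a shared peak. Only 255 of all 22958 genes in the expression table had one, so their absence from lists this short says little.

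Wnt pathway genes with a shared peak fell in 4 of 5 cases. Of the 26 tested genes of the Wnt list without a shared peak 11 rose and 8 fell. The ligand Wnt7b had 27, 22.7 and 26.5 RPKM in glia, against 74.4, 70.6, 59.0 and 66.3 RPKM in GPC (log2 change -1.44 ± 0.10). The ligand Wnt7a, which with Wnt7b drives growth of brain vessels, had 27.2, 25.9 and 27.5 RPKM in glia, against 57.6, 56.0, 49.4 and 53.7 RPKM in GPC (-1.04 ± 0.07). Both ligands were lower in all glia libraries. The receptor Fzd1 had 19.1, 19.0 and 19.5 RPKM in glia, against 37.4, 35.2, 24.9 and 34.9 RPKM in GPC (-0.81 ± 0.12). Apc, a scaffold of the complex that degrades beta-catenin, had 21.9, 25.2 and 19.1 RPKM in glia, against 33.4, 35.5, 23.9 and 33.3 RPKM in GPC, with overlap through GPC replicate 3 (-0.55 ± 0.14, or -0.66 without that library). The TCF factor Tcf7l1, known as a repressor of Wnt targets, averaged 25.1 ± 1.59 RPKM in glia (SD, n = 3) and 22.4 ± 3.66 RPKM in GPC (SD, n = 4) and was not called, but rose by 0.26 without GPC replicate 3.

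Receptors and adhesion genes completed the lists. Notch1, the receptor that keeps progenitors from differentiating, had 24.5, 27.6 and 24.9 RPKM in glia, against 47.6, 42.3, 36.1 and 44.9 RPKM in GPC (log2 change -0.77 ± 0.09). It was the 1 gene of 29 on the Notch list with a shared peak and had 2 in separate runs, 3094 bp downstream and 29585 bp upstream. Epha5 had 10.5, 11.5 and 9.80 RPKM in glia, against 17.8, 20.7, 18.2 and 18.4 RPKM in GPC (-0.86 ± 0.08). The semaphorin receptor Plxna2 had 6.36, 8.33 and 4.97 RPKM in glia, against 14.6, 14.5, 7.85 and 14.2 RPKM in GPC (-1.01 ± 0.25), with overlap through GPC replicate 3 (-1.20 without it). These were the 2 genes with a shared peak of a guidance list of 39, and both fell, while 21 rose and 9 fell of the 36 tested without one. Rgma, which is not on that list, rose. Of 3 adhesion genes Cdh11 rose, the cadherin Cdh6 fell (-0.80 ± 0.12) and the laminin chain Lama4 was not called (0.15 ± 0.12).

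Of 30 astrocyte markers 3 had a shared peak. Besides Sparcl1 these were Ttyh1 and Slc1a3, named after their values were seen. Ttyh1, a chloride channel family member of neural stem cells and astrocytes, had 622, 592 and 646 RPKM in glia, against 139.7, 139, 329 and 138 RPKM in GPC (log2 change 1.72 ± 0.33, or 2.15 without GPC replicate 3). The glutamate transporter Slc1a3 went the other way, with 185, 193 and 168 RPKM in glia, against 293, 306, 297 and 306 RPKM in GPC (-0.75 ± 0.07). Of 27 oligodendrocyte markers 2 had a shared peak, Cldn11 and Nkx6-2, and both rose, as did 24 of the 25 without one. The astrocyte, oligodendrocyte, progenitor and neuronal markers given above moved between the cultures with all of these gene groups, and their part in the changes was not tested.

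**Figure D4:**
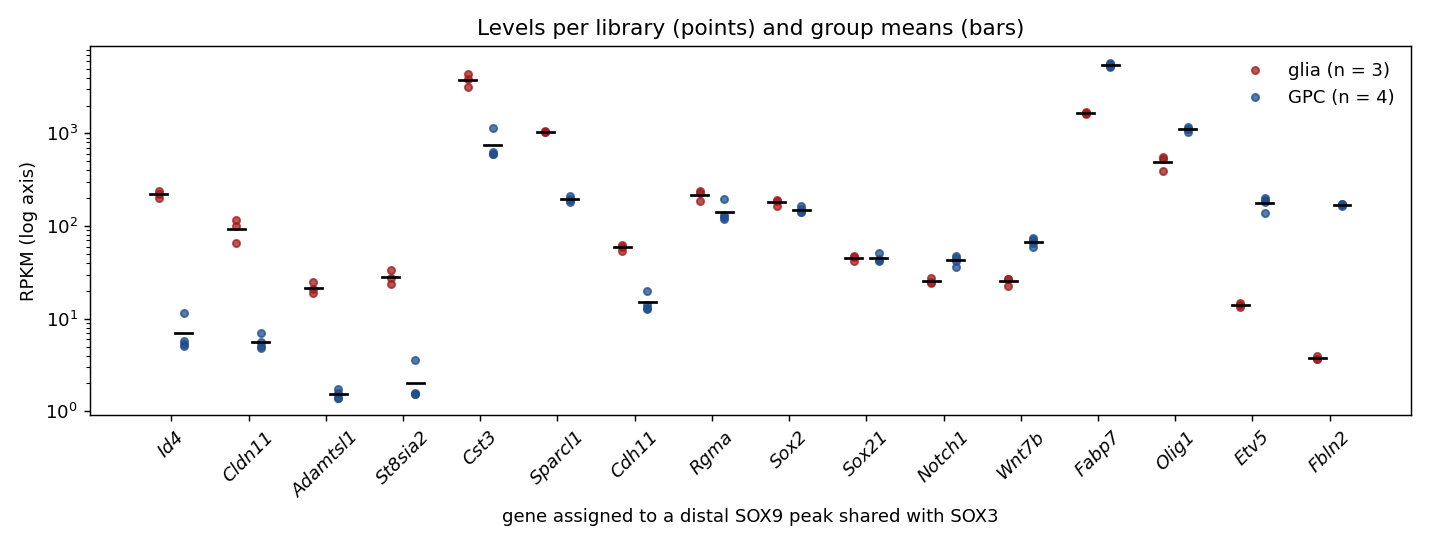
RPKM (log axis) of 16 genes with a shared peak in the 3 glia libraries (red) and the 4 GPC libraries (blue), 1 point per library, with the group mean as a bar. Genes from Id4 to Cdh11 sit higher in every glia library, Rgma, Sox2 and Sox21 overlap, and genes from Notch1 to Fbln2 sit lower in every glia library.

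Genes with a shared peak near the start had higher levels than genes with a far one. The share called was near the background of 70.4% over all tested genes in both. Genes whose nearest shared peak lay 1 to 10 kb away had a median of 25.7 RPKM in glia and 21.1 RPKM in GPC. Of these, 25 of 36 tested were called (69.4%), 13 rising and 12 falling. In between, 53 of 71 were called at 10 to 50 kb (74.6%) and 33 of 43 at 50 to 100 kb (76.7%). For those beyond 100 kb the median was 8.43 RPKM in glia and 8.46 RPKM in GPC, and 47 of 66 were called (71.2%), 19 rising and 28 falling. Among the genes at the edges of the rule, Spata2 (log2 change 0.41 ± 0.07) rose, Vps37b (0.32 ± 0.11) rose with overlap, lost its call when any of 5 libraries was left out and changed by 0.41 without GPC replicate 3, and Dhrs2 (-0.51 ± 0.29) was not called. Tle3, a Groucho-family corepressor and the gene with the smallest overlap, fell (-0.45 ± 0.06). Il1rapl1, with the farthest peak, rose by 2.33 ± 0.40 at 0.650 to 0.902 RPKM in glia and 0.0558 to 0.267 RPKM in GPC, or by 3.14 without GPC replicate 3.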

How the data were processed

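The 3 peak lists were used as deposited by the authors, with 1 list per factor, start and end per peak, and, for SOX9 and SOX3, a gene and a signed distance; per the submitters' processing notes the build was mm9 and MACS and MACS2 were used. The authors' implied strand was the same as in RefSeq for 525 of 526 genes compared, so positive distances are downstream. The NFIA score was deposited without a stated meaning. Read counts per gene were deposited as whole numbers, and RPKM was computed by the authors, per the file headers; the sources used here name no aligner, counter or strand setting.

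Peaks were intersected at 1 bp (Python 3.11.15, pandas 2.3.3), and runs are stretches of overlapping SOX9 peaks. The counts were fitted in R 4.3.3 with edgeR 4.0.16 (TMM, filterByExpr, robust quasi-likelihood; SE is the log2 change over the square root of F) on all 22958 genes, of which 13588 passed the filter. Every adjusted p is from edgeR or, where said, DESeq2 1.42.0, with Benjamini-Hochberg adjustment. The fit was also run on simulated data, in which few genes changed and no library stood apart, so that run does not cover data like these. RPKM gave levels only. Input and H3K27Ac samples were not used here. Named genes were those with at least 3 shared peaks, the 8 largest rises and falls without overlap, the 6 most abundant, those on fixed lists, the factors and those at the edges of the rule. Members, lists and rules were chosen with earlier results of these data known. Alternatives covered scaling, test, filters, libraries left out, the overlap and the distance.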

Additional observations from a re-analysis of the deposited data

Results flagged for a closer look

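In 12 of 54 named genes 1 GPC library stood apart from the other 3 by Dixon's ratio, the gap to the nearest value over the whole range, above its 95% critical value for 4 values. Chance does this in about 1 in 20 groups. It was GPC replicate 3 in all 12. It was the highest for Arsj (ratio 1), St8sia2 (0.973), Scd2 (0.955), Cst3 (0.942), Fgfbp3 (0.908), Sox3 (0.897), Id4 (0.895), Nfia (0.864), Sox9 (0.856) and Sox21 (0.834). It was the lowest for Plxna2 (0.936) and Spred2 (0.837). For Arsj the ratio rests on a single read.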

How the results depend on the processing

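Of 605 alternative values for the 51 named genes tested, 582 kept direction and call, 12 lost the call (Rgma, Sox2 and Vps37b), 8 gained it (Fgfbp3, Lama4, Scd2, Sox6 and Tcf7l1) and 3 changed sign without a call, all for Sox21: 0.02 with at least 50 counts in 3 libraries, 0.05 without GPC replicate 3 and 0.03 without glia replicate 2, within a range of -0.06 to 0.05 over libraries left out. The genes of shared peaks called numbered 158, between 147 and 176 with 1 library left out (67.7% to 81.5%, against 62.1% to 75.8% of all genes tested), 158 with DESeq2's size factors (73.1% against 70.3%), 159 with DESeq2 (73.6% against 68.4%), 162 with no filter (65.3% against 56.5%) and 153 with at least 50 counts in 3 libraries (75.4% against 70.2%). The median log2 change ran from -0.04 to 0.03 with 1 library left out, and was 0.02 with direct symbol matches and 0.02 within 100 kb; it has no test. Requiring SOX3 to cover 50% of the SOX9 peak left 97 shared peaks and 54 called genes, since fewer peaks enter. The NFIA share was 10.3% to 10.9% under its alternatives, and 29.1% to 31.3% without SOX3.

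Replicate numbers 1 to 3 recur in both groups, and the labels do not say that a number marks a shared culture. Deviations of same-numbered libraries correlated at -0.0202, 0.138 and 0.0684, and those of other pairs at -0.159 to 0.0943. With so few libraries these values cannot decide whether the numbers pair them. With the replicate block 153 genes of shared peaks (70.8%) and 8900 of all genes (65.5%) were called, the median was -0.02, and Sox6 passed. Leaving out libraries for genes named outside the rule (Insm1, Neurog2, Pax6, Slc1a3, Ttyh1, Arntl, Paip2b and Qk) was chosen after seeing the data: Insm1 lost its call, and Neurog2 and Qk gained one without GPC replicate 3. Depth limits the genes with few reads, and counting intervals cover counting error only.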
